A study of Mus musculus with 10 samples.

Results

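The 4 arrays of expanded skin follow stretched back skin of mice over 3 weeks, at days 0, 7, 14 and 21 after the expander under it had been injected in full. They were chosen by their sample titles, "expanded sample" with time points 1 to 4, and are 4 of the 10 arrays of the series. Each day has 1 array, so the course over the days was measured without replicates. All genes named by the probe-to-gene table were described, 19505 genes, of which 13653 were tested.

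The mice were C57BL/6J and 9 weeks old at the start. In expanded skin, PBS (phosphate-buffered saline) injections had gradually enlarged a silicone expander lying under the back skin. In non-expanded skin, which gives 4 further arrays at the same days, the same device had been implanted and received no PBS. The last 2 arrays, 1 of telogen (hair follicles at rest) and 1 of anagen (hair follicles growing), came from mice that had no operation. Both arms of the time course therefore share the implantation, and day 0 of either arm is not untreated skin. The labels do not say whether an array held RNA of 1 mouse or of a pool. With 1 array a day in each arm, there is no spread between replicates. The p-values measure how far arrays depart from a line or curve over the days. That departure can hold real change as well as technical scatter. By its title, the series asks how stretch acts on Lgr6-positive stem cells of the epidermis.

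Skin held under tension by an expander gains area. Its epidermis is renewed by dividing basal keratinocytes whose daughters differentiate upward into a barrier, and keratinocytes under stress switch on keratins and antimicrobial proteins that are low in resting skin. Hair follicles cycle between rest and growth, and beneath the fat of mouse back skin lies the panniculus carnosus, a thin sheet of mostly fast-twitch striated muscle. An implanted device also draws macrophages and other immune cells, which secrete chemokines and enzymes that break down matrix.

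Each value is a log2 signal from the deposited table, in which 1 unit is a doubling. The 4 expanded arrays had pairwise correlations of 0.957 to 0.98 over the probe sets (a description, since probe sets are not replicates). The background probe sets had a median of 5.46, and on the expanded arrays 404 of 28846 probe sets read above 16. A 16-bit scan cannot give such a value unscaled, so the top of the scale may be stretched. Keratinocyte markers marked the tissue as skin, with all 14 basal epidermis genes at least 1 unit above background on all 4 expanded arrays. Markers of B and plasma cells were all below background there, 10 of 10 genes. In whole skin, fewer cells of a type and less RNA per cell cannot be told apart.

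A slope and a curvature describe each gene. The slope is the fitted change over 21 days, from a straight line through the 4 arrays. The curvature is the mean of days 7 and 14 minus the mean of days 0 and 21, so that a positive value marks a hump and a negative value a dip. Lines and curves were fitted in both arms at once with limma. The scatter of all 8 arrays around them gives the standard error (SE). A real change that a line or curve cannot follow, in either arm, therefore enters the SE. Where an expanded array is left out below, the expanded curve passes exactly through the arrays that remain. It then fills in the missing day, and the SE of the curvature comes from the scatter of the non-expanded arm alone. For neither the slope (0% called) nor the curvature (0%) did limma give any gene an adjusted p under 0.05. At an unadjusted p under 0.05, the slope had 161 genes higher (1.18%) and 178 lower (1.3%), and the curvature had 219 higher (1.6%) and 261 lower (1.91%). Both totals lie under the 682.7 genes that chance alone would give. Other settings went above it, with 1111 curvature genes from the expanded arrays alone and 982 slope genes without the day-0 array. No setting run gave an adjusted p under 0.05, and the values below are descriptions of these 4 arrays. In the main limma fit the lowest adjusted p was 0.847 for the slope and 0.367 for the curvature. For a single value, the 24 possible orders of the 4 days cannot give a two-sided exact permutation p below 0.0833.

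The commonest courses in expanded skin turned at day 7. In 4153 genes (30.4%) the highest and lowest of the 4 arrays lay at least 2-fold apart. Among them, 1008 were lowest at day 7 and read higher at each later step (24.3%), and 868 were highest at day 7 and read lower at each later step (20.9%). Another 128 read higher at each of the 3 steps (3.1%) and 201 lower at each step (4.8%). In non-expanded skin, 6311 genes spanned 2-fold (46.2%), and the commonest courses were zigzags, with 2269 genes up, down and up again and 2050 the reverse. In expanded skin those courses held 519 and 731 genes. Values in random order would also zigzag most often and run steadily least often. These counts come from 1 array a day and the difference between the arms was not tested.

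**Figure D1:**
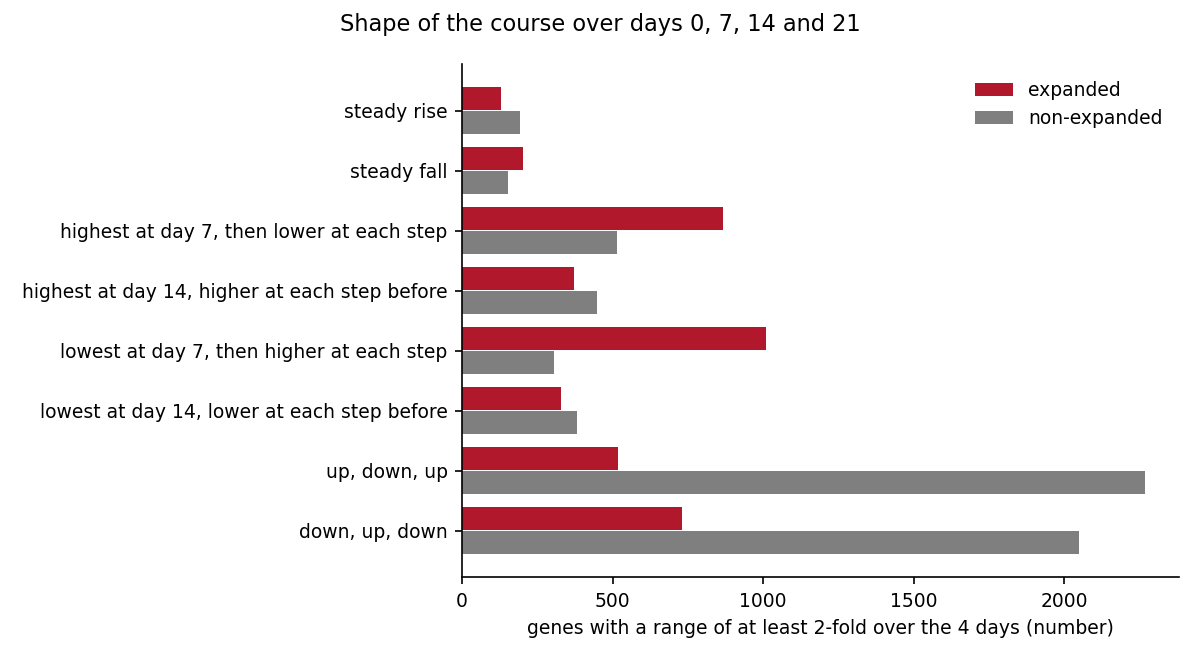
Horizontal bars give the number of genes (x axis) with each course over days 0, 7, 14 and 21 (y axis), among genes whose 4 arrays span at least 2-fold, red for expanded and grey for non-expanded skin. In expanded skin the longest bars are a low point at day 7 (1008 genes) and a high point at day 7 (868), while in non-expanded skin they are the 2 zigzags (2269 and 2050).

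Steps between neighbouring days were of like size throughout. From day 0 to 7, 694 genes stood 2-fold or more above their earlier value (5.08%) and 760 as far below it (5.57%). From day 7 to 14 the counts were 732 (5.36%) and 621 (4.55%), and from day 14 to 21 they were 723 (5.3%) and 860 (6.3%). Day 21 against day 0 gave 651 higher (4.77%) and 758 lower (5.55%), a total between those of the neighbouring steps. Each of these counts was larger in non-expanded skin, where they ran from 1326 to 1895.

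The 3 subunits of the slow troponin complex read higher at every step. Tnni1, the slow-twitch isoform of troponin I, the inhibitory subunit of the thin filament (chromosome 1, 135783033 to 135810989, mm10), read 6.48, 9.55, 10.54 and 11.80 at days 0, 7, 14 and 21. Tnnc1, the calcium-binding troponin C of slow and cardiac muscle (chromosome 14, 31208312 to 31211729), read 7.58, 9.67, 10.44 and 12.55. Tnnt1, the slow troponin T that holds the complex on tropomyosin (chromosome 7, 4504569 to 4515975), read 8.91, 10.13, 10.87 and 13.77. Day 0 was the lowest and day 21 the highest array for each. The genes were named for 3 steps of the same sign and an unadjusted slope p under 0.01. This order and the small slope p-values were therefore fixed by the choice. Their slopes in limma were 5.08 ± 0.71, 4.70 ± 0.68 and 4.60 ± 0.70 log2 units (SE; unadjusted p = 0.000131, 0.000166 and 0.000223). Without the day-0 array the slope of Tnni1 was 3.37, and without the day-21 array that of Tnnt1 was 2.95. In non-expanded skin all 3 genes lay lower at days 7, 14 and 21 than at day 0. Tnni1 read 5.81, 4.91, 4.31 and 4.71 there, near the background median of 5.46 at day 0 and below it afterwards. Its arms did not overlap, while Tnnc1 and Tnnt1 overlapped through day 0 (8.34 and 9.19 in non-expanded skin). The slope differences between the arms were 6.25 ± 1.01, 6.22 ± 0.97 and 5.32 ± 0.99 (limma, unadjusted p = 0.000325, 0.000259 and 0.000794, adjusted p = 0.999 for each). They rest on the same chosen slopes in expanded skin and, for Tnni1, on non-expanded values near or below background.

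The promoter windows of these 3 genes are shown because the genes move together. The windows come from RefSeq (GRCm38.p6, which is mm10) and run from upstream of an annotated start to just past it. Capitals mark each CANNTG, the E-box that myogenic and many other helix-loop-helix factors can bind, searched on both strands. The window of Tnni1 lies at chr1:135799171-135799470 on the plus strand, at a start inside the gene, that of Tnnc1 at chr14:31208062-31208361 on the plus strand, and that of Tnnt1 at chr7:4515926-4516225 on the minus strand.
Tnni1: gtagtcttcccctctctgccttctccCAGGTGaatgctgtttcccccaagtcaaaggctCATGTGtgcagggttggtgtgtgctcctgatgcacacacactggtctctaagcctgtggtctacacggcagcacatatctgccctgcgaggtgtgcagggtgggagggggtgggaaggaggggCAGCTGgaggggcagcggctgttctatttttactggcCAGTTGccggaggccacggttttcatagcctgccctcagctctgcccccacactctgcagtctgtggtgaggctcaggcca
Tnnc1: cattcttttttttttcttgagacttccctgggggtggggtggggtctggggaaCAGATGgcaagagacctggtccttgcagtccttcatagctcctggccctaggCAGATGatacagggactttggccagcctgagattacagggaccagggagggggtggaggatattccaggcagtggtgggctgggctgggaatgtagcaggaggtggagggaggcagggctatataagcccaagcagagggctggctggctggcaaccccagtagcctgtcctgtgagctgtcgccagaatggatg
Tnnt1: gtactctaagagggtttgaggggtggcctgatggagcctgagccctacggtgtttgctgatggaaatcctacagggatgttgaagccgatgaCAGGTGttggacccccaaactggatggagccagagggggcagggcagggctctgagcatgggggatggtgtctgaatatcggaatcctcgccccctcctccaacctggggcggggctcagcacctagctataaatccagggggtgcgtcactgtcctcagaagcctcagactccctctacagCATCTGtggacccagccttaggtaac
They hold 4, 2 and 2 E-boxes, and an overlapping second window of Tnni1, not shown, holds 2. This is a weak description, since 72.31% of the 32851 promoter windows in the table hold at least 1. The window of Tnnt1 also holds TATAAA, found in 13.62% of all windows, and none of the 3 holds a CArG box (1.63%).

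Myl2 and Myh7 were high on the day-21 array alone. Myl2, the regulatory myosin light chain of slow and cardiac muscle, read 5.45, 6.25, 6.59 and 14.45, and Myh7, the slow myosin heavy chain, read 6.04, 5.85, 6.10 and 13.78. Both lay near background until day 14 and stood far above it at day 21. Without that array the slope of Myl2 was 1.71 log2 units, against 8.20 ± 1.97 (SE) with it. Fabp3, a fatty acid carrier of heart and oxidative muscle, read 10.46, 10.83, 10.92 and 14.39, and had a slope of 3.57 with the day-21 array and 0.70 without it. Fabp3 was also highest at day 21 in non-expanded skin, at 13.15 against 11.64 to 11.83 on the other days. Smtnl1, a regulator of contraction in smooth and skeletal muscle, read 5.88, 6.73, 6.77 and 9.81, and took a like course in non-expanded skin, from 6.90 to 10.74. The list of embryonic, cardiac and slow muscle had 19 tested genes. Of these, 6 had an unadjusted slope p under 0.05 in limma and a higher fit, against 1.18% of all genes. For 0 of the 19 was the fit lower at that p, and the median slope was 0.91. That median was 0.09 without the day-21 array and 2.70 without the day-0 array. Its members did not share a course, with 9 highest at day 21, 5 at day 0 and 11 of 19 lower at day 7 than at day 0. Ankrd2, a stretch-responsive ankyrin repeat protein of muscle, read 10.44, 6.44, 7.71 and 11.93, high on both outer days.

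Genes of adult fast muscle fibres read lower on the middle days than on the outer days. Pvalb, the calcium buffer parvalbumin of fast fibres (chromosome 15, 78191112 to 78206400), read 11.89, 6.38, 6.03 and 11.08, close to background on the middle days. Ryr1, the calcium release channel, read 12.01, 8.50, 9.76 and 12.97, and Ckm, muscle creatine kinase, read 14.79, 10.63, 11.93 and 14.26. In all 3 genes days 7 and 14 lay below days 0 and 21 without overlap. The curvature of Pvalb was -5.28 ± 0.39 (SE; limma, unadjusted p = 2.69e-05, adjusted p = 0.367), and those of Ryr1 and Ckm were -3.36 ± 0.51 and -3.24 ± 0.57. That of Ryr1 was -1.93 without the day-0 array. All 28 genes of the list had negative curvatures, from -5.28 to -1.04 with a median of -2.35, and 24 of 28 passed an unadjusted p of 0.05 against 1.91% of all genes. That count was 4 of 28 without the day-0 array and 6 of 28 without the day-21 array, with medians of -2.15 and -2.45. The list mean read 14.03, 11.92, 12.24 and 14.75, beside 14.16, 14.94, 15.13 and 15.65 in non-expanded skin. The amount of muscle in each skin sample is not in the labels, and its part in the fast fibre values was not tested. With the mean of the 28 genes as a covariate in both arms, the slopes of Tnni1, Tnnc1 and Tnnt1 were 5.38, 4.72 and 4.35. These genes were chosen for their slope. The median slope of the list of embryonic, cardiac and slow muscle was 0.49 with the covariate and 0.91 without it. A mean of fast fibre genes does not measure the amount of slow muscle, and the part of that amount was not tested.

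Genes of muscle formation followed courses of their own. Myh3, the embryonic myosin heavy chain, read 11.32, 13.28, 14.17 and 13.87, with all 4 arrays above the 5.09 to 7.72 of non-expanded skin. Mymk, the membrane protein that fuses muscle precursors (chromosome 2, 27061636 to 27072161), read 6.99, 9.94, 9.27 and 5.85. Its middle days stood above its outer days, with a curvature of 3.19 ± 0.38 (SE; limma, unadjusted p = 0.000317), opposite in sign to that of the adult fibre genes, and 2.74 (unadjusted p = 0.0861, limma) without the day-0 array. Tnnt2, the troponin T of heart and developing muscle, had the same hump at 9.61, 12.29, 11.13 and 9.33 (2.24 ± 0.47). Mstn, the growth inhibitor myostatin, read 5.40, 4.25, 5.93 and 7.39, while in non-expanded skin it ran from 8.58 to 12.56. Of 13 tested genes of the list of myogenic regulators and fusion, 7 had positive curvatures, with a median of 0.12. Over all genes the median was -0.01.

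**Figure D2:**
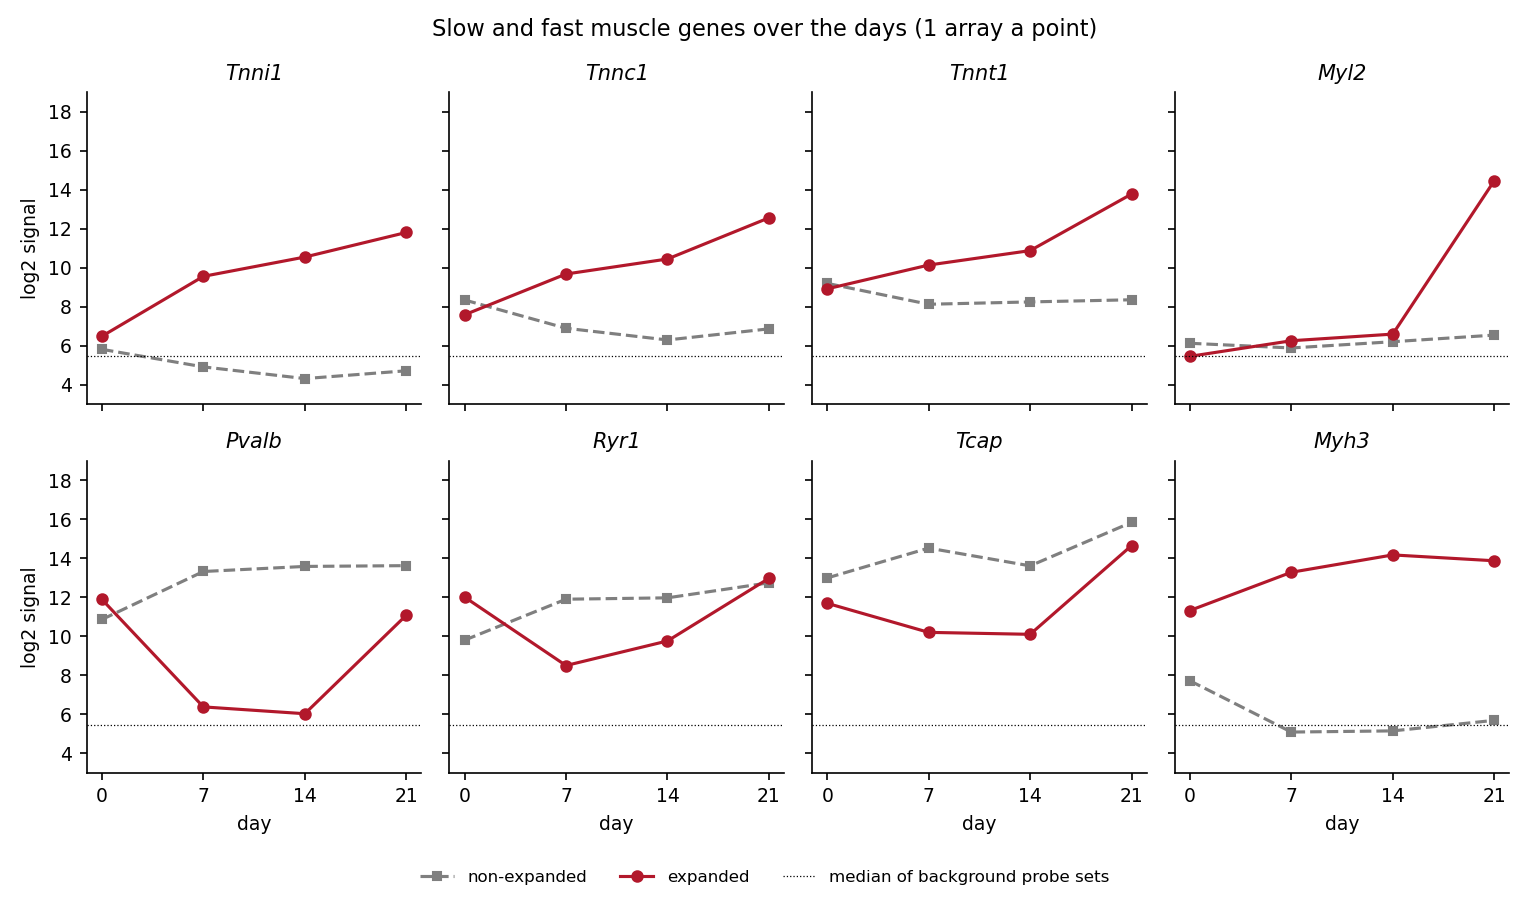
Each panel plots the log2 signal of 1 muscle gene (y axis) against the day after full injection (x axis), with 1 array a point, red circles for expanded and grey squares for non-expanded skin, and a dotted line at the background median of 5.46. The 3 troponin genes climb in red from 6.48, 7.58 and 8.91 to 11.80, 12.55 and 13.77, Pvalb dips to 6.03, and Myl2 leaves background only at day 21.

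Stress keratins and antimicrobial genes of the epidermis were highest at day 7. S100a9 and S100a8, which together form the antimicrobial protein calprotectin of neutrophils and stressed keratinocytes, read 9.08, 17.17, 15.21 and 9.24, and 8.34, 16.51, 13.95 and 8.18. Krt16, the keratin of wounded epidermis, read 10.39, 16.16, 13.84 and 9.13. Sprr2d, a cross-linked envelope protein, read 7.27, 13.90, 12.49 and 6.86. Each of the 4 genes stood higher at days 7 and 14 than at days 0 and 21, by 7.03 ± 0.80, 6.97 ± 0.88, 5.24 ± 0.97 and 6.13 ± 0.74 (curvature ± SE). With the day-0 array left out, the curve through the remaining arrays gave 4.01 for S100a9 and 3.22 for S100a8 (limma, unadjusted p = 0.0539 and 0.0834). In the list of stress and wound epidermis, 16 of 18 tested genes were highest at day 7, against 3262 of all 13653 genes. In limma 11 had an unadjusted curvature p under 0.05 (1.6% of all genes), and the median curvature was 4.65. The list mean read 8.03, 12.69, 10.56 and 7.92. In non-expanded skin the high array was day 0, at 10.82, and the other 3 read 7.25 to 7.34. Without the day-0 array of expanded skin the median curvature was 0.47, and 0 of the 18 genes were higher at an unadjusted p under 0.05.

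S100a8 and S100a9 also belong to the neutrophil list, which was treated separately. Its mean read 7.61, 9.62, 8.11 and 6.57, and of its 17 genes on the array 10, 11, 6 and 4 were at least 1 unit above background on the 4 days. Lcn2, an iron-binding protein of neutrophils and stressed epithelium, read 9.80, 14.86, 12.12 and 9.73. Clec4d, a receptor of myeloid cells, did not share that course and read 10.85, 9.66, 8.64 and 6.32. The part of neutrophils in the S100a8 and S100a9 values was not tested.

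Differentiation genes of the epidermis peaked on days 7 and 14. Of 30 tested, 16 were highest at day 14 and 11 at day 7, against 3401 and 3262 of all 13653 genes. Positive curvatures were found in 28, with a median of 1.07. In limma 7 of these had an unadjusted p under 0.05, against 1.6% of all genes. That count was 1 without the day-0 array, and 2 without the day-21 array, where the median was 0.51. Cnfn, a cornified envelope protein, read 11.08, 14.22, 13.41 and 10.04 (curvature 3.25 ± 0.37, SE; 2.56 with an unadjusted limma p of 0.0938 without the day-0 array). Rptn, a filaggrin-like envelope precursor, read 9.74, 15.00, 13.95 and 10.77, and Tgm3, a transglutaminase that cross-links the envelope, read 7.33, 11.60, 10.75 and 9.07. In these 3 genes both middle days stood above both outer days. Krt10, the main keratin of the spinous layer, read between 18.58 and 19.13 on all 4 days, above the scanner limit. Krt2, a keratin of the upper epidermis, read higher at each step, at 7.48, 8.86, 11.18 and 11.55.

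Cell division genes had the same hump at smaller size. Mki67, a protein of dividing cells, read 11.59, 12.88, 12.48 and 11.44, and Plk1, a mitotic kinase, read 6.76, 8.58, 7.93 and 6.35. Rrm2, a subunit that makes deoxynucleotides, read 8.20, 9.26, 9.51 and 7.45. In each, days 7 and 14 were above days 0 and 21, and the curvatures were 1.16 ± 0.38, 1.70 ± 0.39 and 1.56 ± 0.40 (SE). Of the 34 cell cycle genes, 30 were lowest at day 21, against 4037 of all 13653 genes. Positive curvatures were found in 32, 10 with an unadjusted p under 0.05 in limma (1.6% of all genes). With any 1 expanded array left out, 0 to 2 of the 34 passed that p, with medians from 0.82 to 0.95, and the curvature of Plk1 was 0.94 without the day-0 array. The list mean read 7.99, 8.63, 8.41 and 7.34, while the anagen array read 9.94. In non-expanded skin it was also lowest at day 21, at 8.48, 7.93, 8.05 and 7.21. The median slope was -0.66 in expanded and -1.15 in non-expanded skin. Krt14, the keratin of basal cells, shared the hump at 16.30, 17.51, 17.14 and 16.17, and the whole basal list did not, at 12.94, 12.97, 13.24 and 13.23. The interleukin 1 and 6 family had no common curvature, with 9 of 17 positive and a median of 0.07. Among its members Il1f9 and Il1f6, chosen after their values were seen, had humps, Il1f9 at 9.46, 12.32, 11.72 and 9.31 and Il1f6 at 8.47, 10.71, 10.74 and 7.16.

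**Figure D3:**
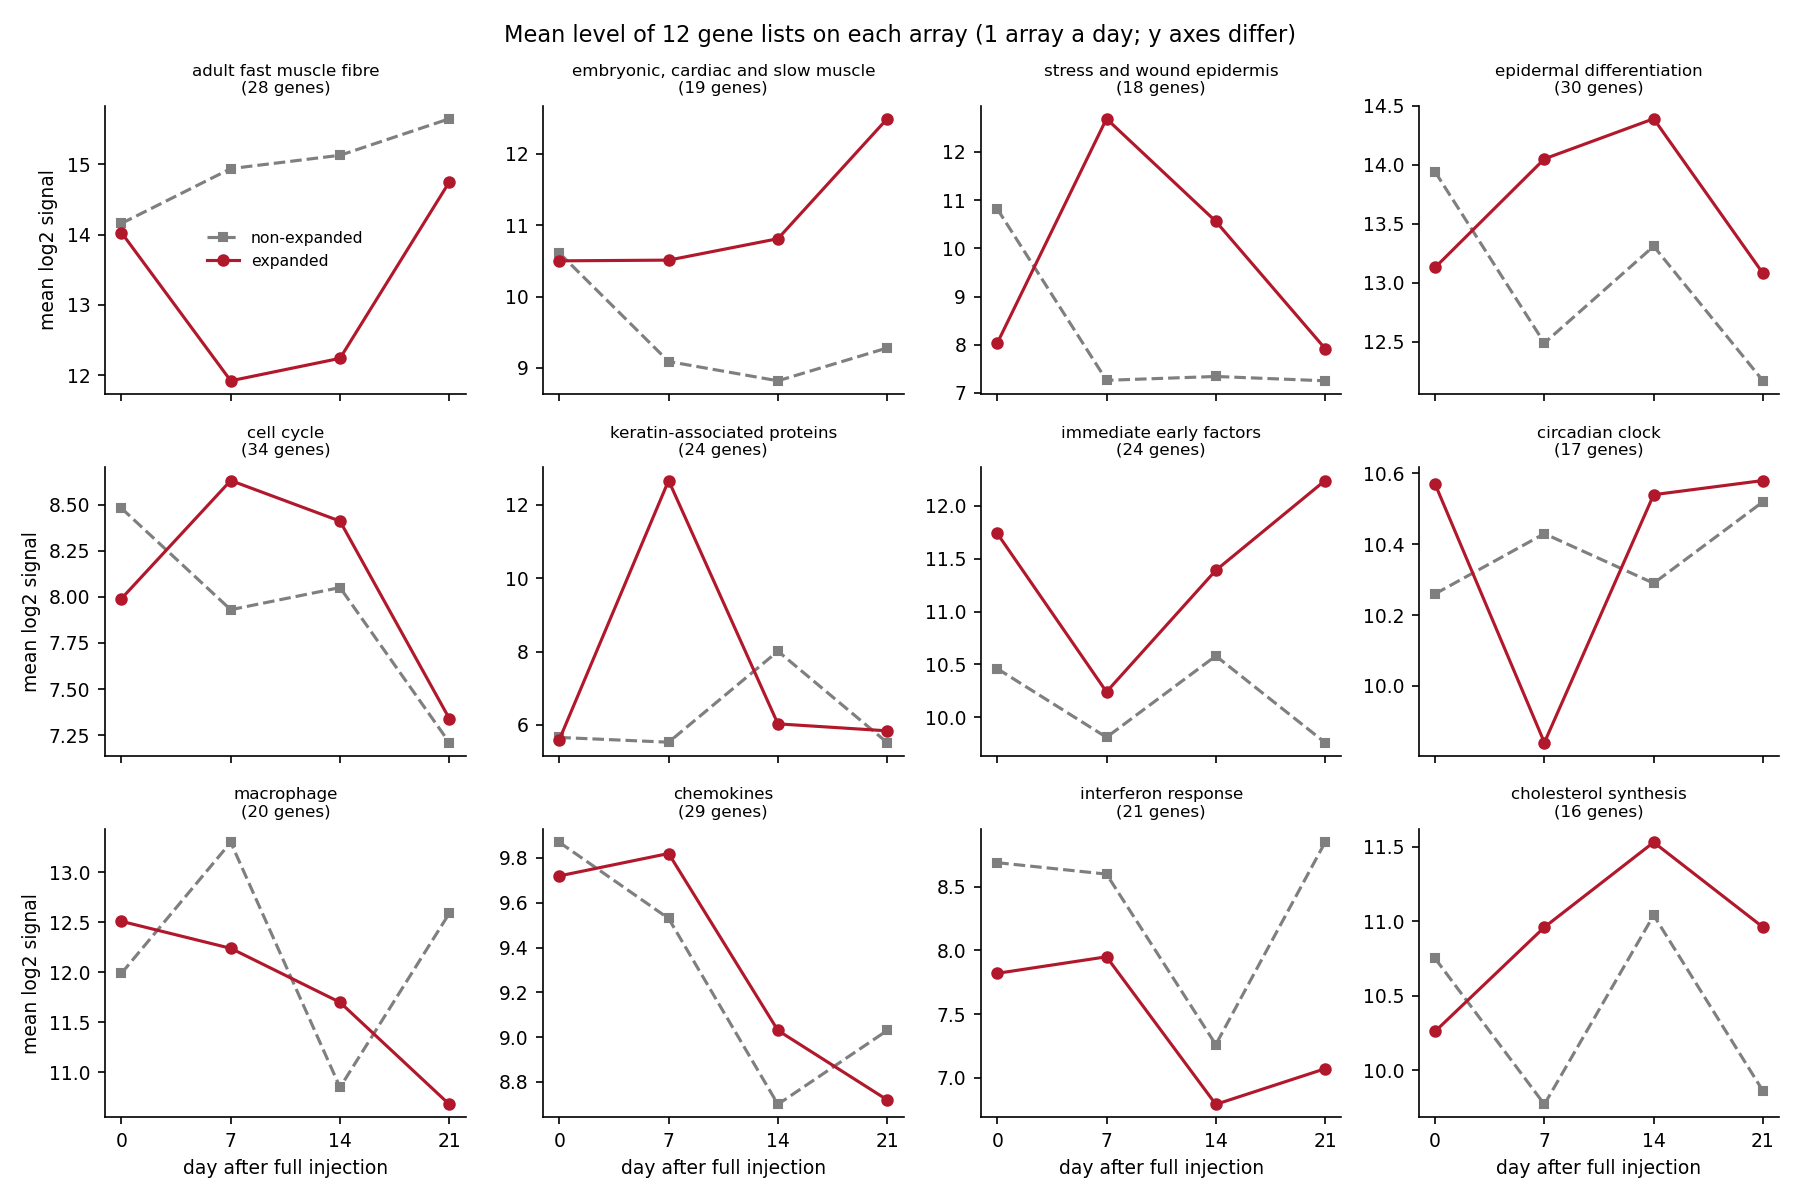
Each panel plots the mean log2 signal of a gene list (y axis, scaled per panel) against the day after full injection (x axis), red circles for expanded and grey squares for non-expanded skin, 1 array a point. In expanded skin the stress list peaks at 12.69 and the keratin-associated proteins at 12.66 on day 7, the adult fast muscle list dips to 11.92 on the same day, and the macrophage list goes from 12.51 to 10.68.

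Hair genes stood out on the day-7 array of expanded skin alone. All 24 tested keratin-associated proteins, which embed the keratin filaments of the hair shaft, were highest at day 7, as were all 13 hair shaft keratins and all 13 inner root sheath genes. Krtap1-5 read 5.64, 17.14, 6.25 and 6.22, and Krtap22-2 read 4.46, 19.19, 8.83 and 6.42, values chosen here for the gap at day 7. Tchh, trichohyalin of the inner root sheath, read 6.40, 17.16, 8.79 and 10.58. The other 3 days of each gene lay at least 6 units lower. The list mean of the keratin-associated proteins was 12.66 at day 7 and 5.60 to 6.03 on the other days, beside 16.72 on the anagen and 7.80 on the telogen array. In non-expanded skin the same list was highest at day 14, at 8.01, where Krtap22-2 read 16.49. The median curvature of 3.59 depends on which array is left out and was -6.60 without the day-0 array.

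Pigment genes did not accompany the hair genes. The melanocyte list, which read 12.06 in anagen, read 7.01, 6.80, 6.56 and 7.12 in expanded skin, with 7 or 8 of its 13 genes below background each day. Dct, a melanin enzyme, read 7.71 at day 7 and 15.73 in anagen. Transcription factors of the hair matrix were likewise highest at day 7 but far from anagen, with Foxn1 at 5.58, 8.61, 6.48 and 6.40 against 13.69, and Dlx3 at 5.38, 8.56, 6.47 and 6.12 against 13.93. Of the 150 genes highest in anagen over telogen, 134 were highest at day 7 in expanded skin, against 3262 of all 13653 genes. Of the 150, 50 belong to the hair lists above, so this count partly repeats theirs.

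Immediate early genes, which respond within minutes to growth signals, stretch or dissection, were lowest at day 7. Fos, an AP-1 subunit, read 15.00, 10.58, 14.72 and 16.14, and Dusp1, a phosphatase that switches off MAP kinases, read 17.10, 14.27, 17.50 and 17.80. Nr4a1, an orphan nuclear receptor, read 10.45, 7.33, 9.41 and 11.52. Day 7 was the low array in all 3. Of the 24 genes of the list, 20 were lowest at day 7, against 4322 of all 13653 genes. Of the 24, 22 had negative curvatures and 5 of these an unadjusted p under 0.05 in limma (1.91% of all genes), with a median of -0.98. The list mean read 11.74, 10.24, 11.39 and 12.24 and stood above the 9.76 to 10.58 of non-expanded skin at days 0, 14 and 21. Without the day-0 array the median curvature was 0.46. Maff, a small Maf factor on the same list, went the other way, at 6.77, 6.06, 4.98 and 4.76.

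Clock and connective tissue genes were low on the same array. Day 7 was the lowest array for 4322 of all 13653 genes. Of 17 circadian clock genes, 13 were lowest at day 7, and the list mean read 10.57, 9.84, 10.54 and 10.58. Nr1d1, the clock repressor REV-ERB alpha, read 9.76, 8.38, 9.71 and 11.15. Among fibrillar collagens and their partners 13 of 19 were lowest at day 7, including Eln, elastin, at 13.34, 11.13, 13.23 and 12.54. Col1a1, the main collagen chain of dermis, read 18.14, 16.98, 18.26 and 18.40, in a range above the scanner limit. The Wnt inhibitor Sfrp4 had a deep low point, at 10.69, 6.61, 10.44 and 10.59, and ran from 10.87 to 12.62 in non-expanded skin. The time of day of sampling is not in the labels, and its part was not tested.

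Mmp12 read lower at each step in both arms. This gene, the elastin-degrading metalloproteinase of macrophages (chromosome 9, 7344397 to 7360461), read 17.28, 15.66, 12.92 and 12.86. Its slope was -4.80 ± 0.74 (SE; limma, unadjusted p = 0.000248, adjusted p = 0.847). It was named for that slope and for expanded steps of the same sign. In non-expanded skin it took the same course at 15.81, 14.14, 11.42 and 10.19, and the difference in slope was 1.08 ± 1.05 (SE; limma, unadjusted p = 0.334, adjusted p = 0.999). Telogen skin without surgery read 7.10, below every array of both arms.

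The Mmp12 window is shown because it heads the downward courses and because a TGANTCA, the site type of AP-1, lies in it. The window is chr9:7347124-7347423 on the plus strand, at a start inside the gene (RefSeq, GRCm38.p6), and capitals mark the match.
Mmp12: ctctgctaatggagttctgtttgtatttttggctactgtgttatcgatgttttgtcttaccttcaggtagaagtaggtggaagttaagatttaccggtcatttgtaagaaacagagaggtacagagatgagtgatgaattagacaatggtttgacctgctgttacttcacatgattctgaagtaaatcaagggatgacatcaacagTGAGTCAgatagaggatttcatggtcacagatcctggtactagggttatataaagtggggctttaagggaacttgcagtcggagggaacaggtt
TGANTCA was found on either strand in 7.81% of all promoter windows, and the window at the start of the gene holds 0. Of the 12 genes named for a downward slope, 11 had windows and 3 held TGANTCA, and of the 12 named for an upward slope 11 had windows and 0 held it.

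Cd84, Ccl3 and Itgax were among the other genes named for a downward slope. Cd84, a self-binding receptor of leukocytes, read 12.66, 11.55, 10.23 and 9.40, and Ccl3, a chemokine that draws monocytes, read 10.32, 9.86, 8.32 and 7.77. Itgax, the integrin CD11c of dendritic cells and some macrophages, read 7.64, 5.84, 5.19 and 5.16, the last 3 near or under background. All 3 read lower at each step, as the choice required, with slopes of -3.34 ± 0.68, -2.76 ± 0.73 and -2.43 ± 0.70 (SE). The slope of Itgax was -1.02 without the day-0 array (limma, unadjusted p = 0.319). Ctsl, a lysosomal protease, was level until day 7 and then lower, at 14.90, 14.89, 14.20 and 13.02. Genes of other kinds were named with them. Adm, the vasodilator adrenomedullin, read 13.31, 12.40, 11.86 and 10.46, and Svep1, a large adhesion protein of the matrix, read 13.25, 12.43, 12.05 and 10.98.

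The macrophage list had negative slopes throughout. All 20 tested genes had negative slopes, against 6723 of all 13653 genes, with a median of -2.01. In limma 5 had an unadjusted p under 0.05, against 1.3% of all genes. Day 21 was the lowest array for 17, against 4037 of all genes. The list mean read 12.51, 12.24, 11.70 and 10.68, and in non-expanded skin it went up and down at 11.99, 13.30, 10.85 and 12.59. Itgam, the integrin CD11b, read 12.04, 11.66, 9.77 and 9.12, and Ms4a7, a membrane protein of macrophages, read 13.27, 13.39, 12.05 and 10.85. Both expanded values at day 21 were the lowest of the arm. Without the day-21 array the median slope was -1.05 and 0 of the 20 genes passed an unadjusted p of 0.05. At day 21 the list still stood above telogen skin, which read 9.44.

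Chemokines and complement components also had mostly negative slopes. C1qc is on both the complement and the macrophage list, so their counts partly overlap. Of 29 chemokines 27 had negative slopes, against 6723 of all 13653 genes, with a median of -0.98. In limma 7 had an unadjusted p under 0.05, all lower, against 1.3% of all genes. The list mean read 9.72, 9.82, 9.03 and 8.72. In non-expanded skin it also ended lower, at 9.87, 9.53, 8.70 and 9.03, with a median slope of -0.52. Cxcl9, a chemokine induced by interferon gamma, read 10.63, 10.77, 7.08 and 7.34, a drop between days 7 and 14. Ccl12, a monocyte chemokine, read 11.19, 9.74, 10.08 and 8.23. Cxcl13, which draws B cells, did not follow and read 13.07, 14.46, 15.74 and 11.32 (curvature 2.90 ± 0.64, SE; 0.12 without the day-21 array). Among 18 complement genes 16 had negative slopes, against 6723 of all 13653 genes, with a median of -0.77. In non-expanded skin the median slope of this list was 0.56. Cfb, complement factor B, read 12.78, 12.46, 10.93 and 9.80 in expanded skin. C7, a component of the membrane attack complex, did not follow and read 15.60, 13.21, 15.46 and 17.74.

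The interferon response split the course between days 7 and 14. Its 21 genes averaged 7.82, 7.95, 6.79 and 7.07. From day 7 to 14, 10 of them read at least 2-fold lower (4.55% of all genes), while 0 read 2-fold higher. Of the 21, 2 are also on the chemokine list. Bst2, which tethers budding viruses, read 13.45, 13.55, 11.44 and 11.42, and Irf7, a master factor of the response, read 6.88, 6.41, 4.26 and 5.17. The first 2 days of both genes lay above the last 2. In non-expanded skin the list was low at day 14 alone, at 7.26 against 8.60 to 8.85.

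Markers linked to alternative activation of macrophages behaved otherwise. Chil4, a chitinase-like secreted protein (chromosome 3, 106201491 to 106219479), read 3.64, 9.16, 9.51 and 3.54, below background on the outer days. Its curvature was 5.74 ± 0.50 (SE; limma, unadjusted p = 6.57e-05). Chil3, its neighbour in sequence, whose probes may share signal with it, read 6.09, 8.60, 7.37 and 5.12. In non-expanded skin both were highest at day 0, at 7.02 and 8.51. Of the 14 genes of this list 12 had positive curvatures and 10 were highest at day 7, against 6655 and 3262 of all 13653 genes. The median curvature was 0.61, and -0.41 without the day-0 array.

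**Figure D4:**
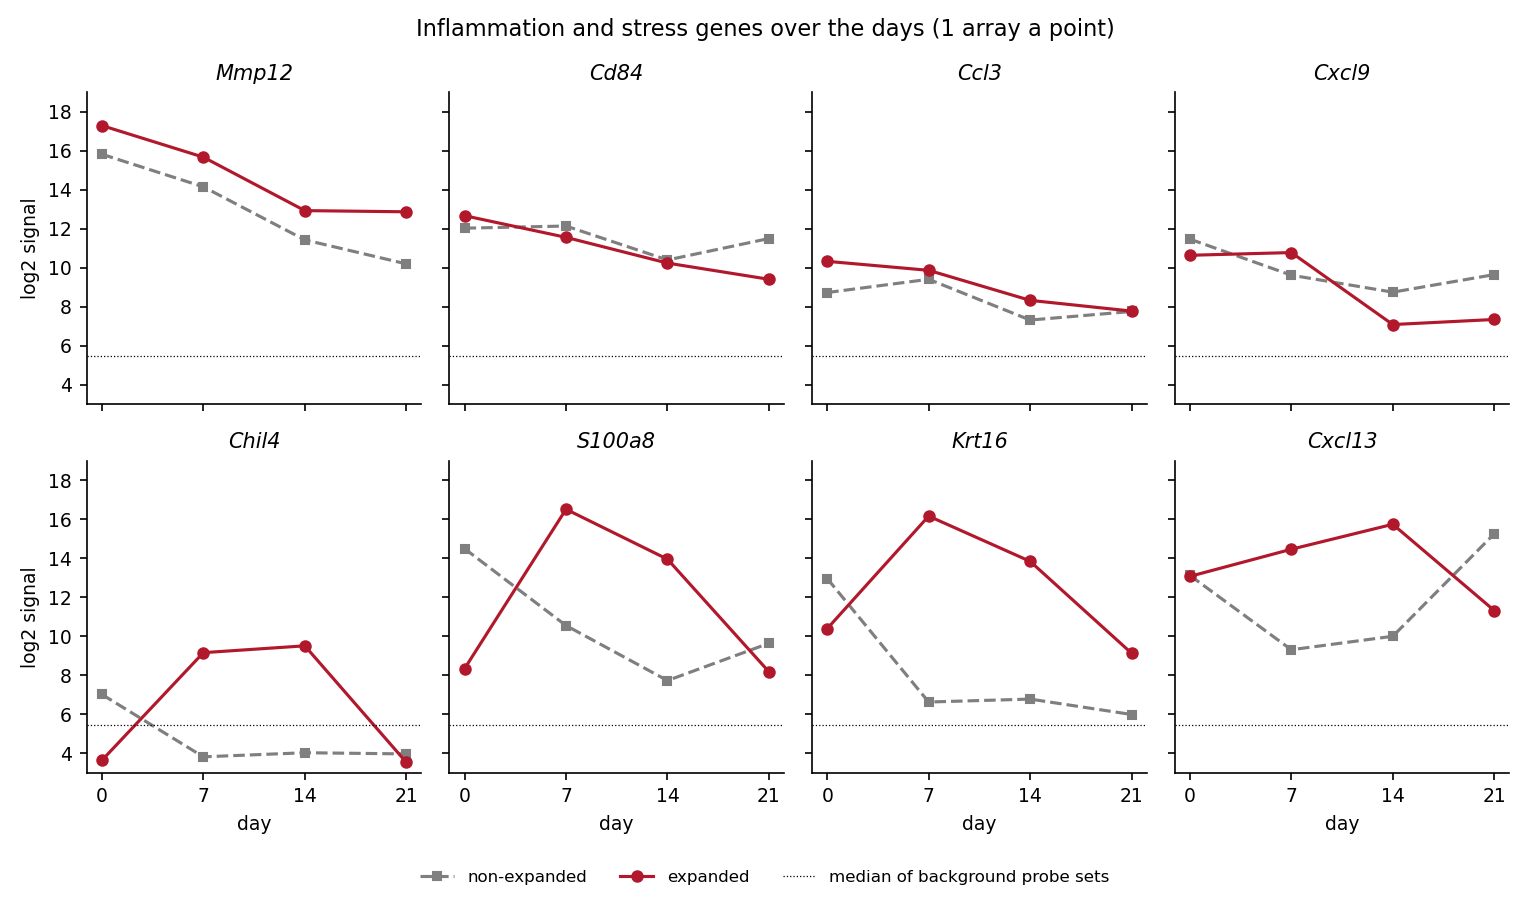
Each panel plots the log2 signal of 1 gene of inflammation or epidermal stress (y axis) against the day (x axis), 1 array a point, red circles for expanded and grey squares for non-expanded skin, dotted line at the background median of 5.46. Mmp12, Cd84 and Ccl3 run downward in red, Cxcl9 drops between days 7 (10.77) and 14 (7.08), and Chil4, S100a8 and Krt16 stand high on days 7 and 14.

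Matrix genes were divided. Among 30 matrix enzymes, 5 had lower slopes (1.3% of all genes) and 1 a higher slope (1.18%) at an unadjusted p under 0.05 in limma. The median slope was -0.53. Mmp9, a gelatinase of neutrophils and keratinocytes, read 7.32, 7.41, 5.43 and 5.30. Mmp11, a fibroblast metalloproteinase, read 8.54, 9.06, 6.83 and 6.61, and Timp1, an inhibitor of metalloproteinases, read 11.54, 11.90, 11.73 and 7.82. Days 14 and 21 were low for both enzymes and day 21 for the inhibitor. P3h2, a collagen prolyl hydroxylase, was the gene with the higher slope, at 11.06, 11.00, 12.43 and 13.29. Tnc, tenascin C of healing wounds, was highest at day 7, at 11.35, 14.35, 10.89 and 9.33.

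Lipid and energy genes gave smaller shifts. All 16 genes of cholesterol synthesis were lowest at day 0, against 2692 of all 13653 genes. Of the 16, 14 were highest at day 14, against 3401 of all genes. The list means were 10.26, 10.96, 11.53 and 10.96. In non-expanded skin they were 10.75, 9.77, 11.04 and 9.86, also highest at day 14. The slopes of the 16 genes in expanded skin were all positive with a median of 0.88, and 0 passed an unadjusted p of 0.05. Lss, lanosterol synthase, read 9.60, 10.78, 11.65 and 11.32, and Sqle, squalene epoxidase, read 9.47, 10.96, 11.27 and 9.69. Without the day-0 array the median slope was -0.09. Ribosomal proteins had positive curvatures in 20 of 20 genes with a median of 0.37. Of the 20, 18 were lowest at day 21, against 4037 of all 13653 genes. In non-expanded skin the mean of this list was also lowest at day 21, at 15.22 against 15.46 to 16.41. Of 39 respiratory chain genes, 34 read higher at day 7 than at day 0, against 6176 of all 13653 genes. Of the 39, 23 were lowest at day 0, against 2692 of all genes, and the median curvature was -0.02. The muscle isoforms Cox6a2 and Cox7a1 differed from that course and were lower at day 7 than at day 0, at 9.97, 8.34, 8.50 and 11.70, and 8.32, 7.80, 7.37 and 10.27.

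Hspa1a, Cyp2b19 and Mal were among the other genes named for an upward slope. Hspa1a, an inducible HSP70 chaperone (chromosome 17), read 10.39, 10.69, 11.59 and 11.99, with a slope of 1.71 ± 0.48 (SE). Without the day-0 or the day-21 array its unadjusted p in limma was 0.0525 and 0.0705. Cyp2b19, a keratinocyte enzyme that oxidises arachidonic acid, read 10.56, 10.87, 11.63 and 12.53, and Mal, a membrane protein of epithelia and myelin, read 6.62, 7.23, 8.17 and 8.45. In each gene day 21 was the highest array, as the choice required. In non-expanded skin Hspa1a was lowest at day 21, at 9.46, and Mal took a like course, from 7.57 to 9.07. Hspa1b is a near-identical copy, so their probes may share signal. Over the 16 heat shock chaperones 9 slopes were positive, 1 with an unadjusted p under 0.05 in limma (1.18% of all genes), and the median was 0.26.

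The receptor in the title of the series stayed near background. Lgr6 read 5.80, 5.18, 6.14 and 6.29, within 1 unit of the background median on every day. Lgr5, a related receptor of hair follicle stem cells, read 10.13, 9.88, 11.44 and 10.61 and was above the 7.84 to 9.44 of non-expanded skin on all 4 days. All 7 tested Lgr receptors and R-spondins had positive slopes with a median of 0.67, and 0 passed an unadjusted p of 0.05. Rspo3, an R-spondin ligand, dipped at 7.49, 5.55, 6.19 and 7.55. Bmp4, a ligand that holds follicles at rest, read 11.83, 11.23, 12.16 and 13.27, and Bmp7 read 6.41, 7.89, 8.01 and 8.16.

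Targets of the stretch-sensitive factors YAP and TAZ were often lowest at day 7. Of 23 tested genes 13 were lowest then, against 4322 of all 13653 genes, 16 read lower at day 7 than at day 0 and 17 higher at day 14 than at day 7. Their slopes were divided, with 13 positive and a median of 0.12. Ccn1, a matrix protein, read 17.42, 15.23, 16.71 and 17.48, and Ccn2, its relative, read 14.90, 13.03, 14.35 and 12.59. Ccn1 and Ccn2 were both lower at day 7 than at days 0 and 14, and parted at day 21. Yap1 itself read 9.73, 9.26, 9.92 and 10.52.

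Day 14 was the highest array for 3401 of all 13653 genes and the lowest for 2602, and some with wide gaps are given here. Krt24, a keratin that few epithelia express, read 7.81, 7.66, 12.34 and 8.17. Igf2, a growth factor, read 10.89, 11.08, 12.98 and 11.19, and Slurp2, a secreted keratinocyte protein, read 8.99, 9.80, 11.55 and 9.22. Low points at day 14 were seen for Penk, the precursor of enkephalins, at 10.49, 11.28, 8.19 and 11.05, and Tnmd, a tendon protein, at 10.41, 10.08, 8.02 and 11.04. These genes were chosen for the gap of that array from the other 3, which is a description. Ctla4, an inhibitory receptor of T cells, read 7.09, 6.54, 4.53 and 6.35, and Gzma, a protease of cytotoxic cells, read 6.57, 5.81, 4.30 and 4.73.

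**Figure D5:**
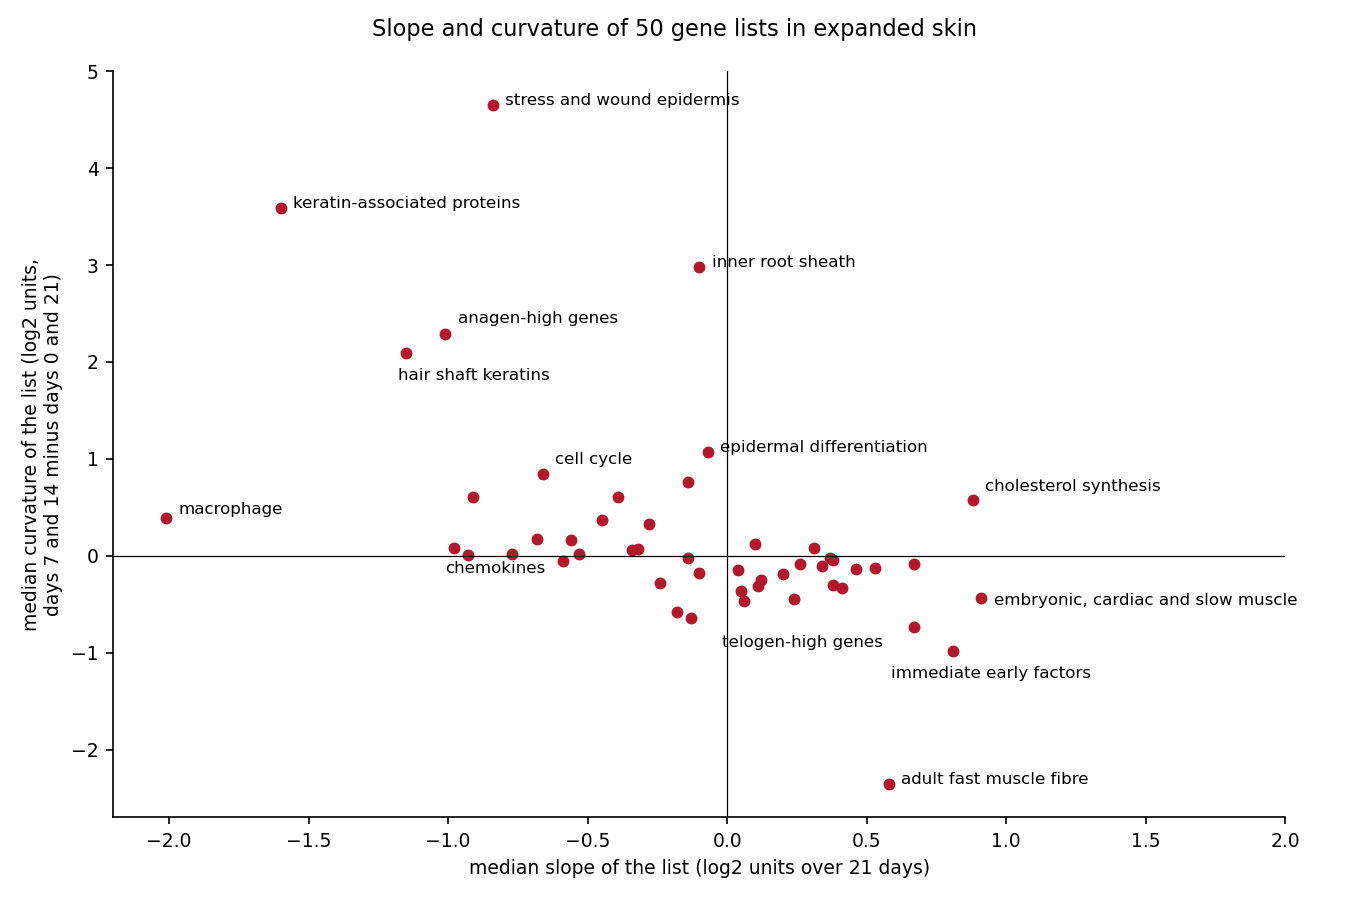
Each point is 1 of the 50 gene lists with at least 5 tested genes, placed by the median slope of its genes over 21 days (x axis, log2 units) and their median curvature (y axis, log2 units) in expanded skin. The macrophage list lies farthest to the left (-2.01), the stress and wound epidermis highest (4.65) and adult fast muscle lowest (-2.35).

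The courses of the arms were also compared directly. The question was whether a slope or a curvature in expanded skin differed from that in skin over an unfilled expander. In limma neither the slope (0%; lowest adjusted p 0.999) nor the curvature (0%; lowest adjusted p 0.516) gave a gene under 0.05. At an unadjusted p under 0.05, 74 slopes were higher in expanded skin (0.542%) and 92 lower (0.674%), and 153 curvatures were higher (1.12%) and 209 lower (1.53%), all under the 682.7 of chance. Within those limits Pvalb differed in curvature by -6.48 ± 0.55 (SE; limma, unadjusted p = 5.5e-05, adjusted p = 0.516), Chil4 by 7.31 ± 0.71, S100a8 by 9.90 ± 1.24 and Mymk by 3.78 ± 0.54. For Pvalb the non-expanded arrays read 10.86, 13.32, 13.58 and 13.62, for S100a8 14.49, 10.55, 7.73 and 9.64, and for Mymk 6.83, 5.20, 4.99 and 4.55. In these 3 genes the middle days of the arms did not overlap, with expanded skin lower for Pvalb and higher for S100a8 and Mymk.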

How the data were processed

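Total RNA of whole mouse back skin was hybridised to 10 Affymetrix arrays, biotin-labelled with the WT PLUS kit per the labels. The deposited table holds 1 value per probe set and array, taken as log2 from its range of 1.88 to 19.88; how the authors normalized it is not given in the sources used here, and mm10 is named in the submitters' processing notes. The table was used as deposited. Of 28846 probe sets, 9243 had no gene symbol and 31 were controls. The 19572 with 1 symbol gave 19505 genes, of which 55 had several probe sets. Genes with a mean of at least 4.86, the 30th percentile, were tested (13653).

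Lines and quadratic curves over the days were fitted in both arms with limma 3.58.1 (R 4.3.3) with Benjamini-Hochberg adjustment, which leaves 4 and 2 residual degrees of freedom. The scripts were tested on simulated data. Members and lists were chosen with earlier results of these data known. The naming rule took, among genes at least 1 unit above background on an expanded array and without predicted genes or clones, the 12 largest slopes per direction at an unadjusted p under 0.01 with the same sign at each step. It added the 6 largest gaps per peak or trough at days 7 and 14, up to 4 members per list by range, and genes fixed by name. Other genes named were chosen after their values were seen. The replicate number is the time point, already in the fit; deviations of same-day arrays correlated at -0.133, -0.171, -0.104 and 0.358 for days 0, 7, 14 and 21, so the numbers were not taken to pair the samples. Alternatives were the filter, the time scale, the arms fitted, a muscle covariate, thresholds, a replicate block and each expanded array left out.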

Additional observations from a re-analysis of the deposited data

Results flagged for a closer look

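In 15 of 176 groups of 4 arrays a single array stood apart from the other 3. Chance gives about 1 in 20 for unrelated groups of unselected values. The groups here share arrays and genes, and many of the genes were named for their slope. That share therefore cannot serve as a comparison, and the groups are a description. In expanded skin these were day 7 for hair shaft keratins (9.11), keratin-associated proteins (12.66), anagen-high genes (10.49) and the circadian clock (9.84), and day 21 for the slow muscle list (12.49), the BMP pathway (9.83), Myl2 (14.45) and Fabp3 (14.39). In non-expanded skin they were day 0 for stress and wound epidermis (10.82) and Krt16 (12.96), day 14 for keratin-associated proteins (8.01), inner root sheath (8.59) and the interferon response (7.26), and day 21 for Fabp3 (13.15) and Hspa1a (9.46).

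Other lists and genes moved from day 0 in opposite directions in the arms at all 3 later days, a difference that was not tested by this measure. The median later change in expanded minus non-expanded skin was 1.82 for the slow muscle list. It was -0.42 for the unfolded protein response, -0.95 for fibrillar collagens, -1.13 for myofibroblast and smooth muscle, -0.45 for the TGF-beta pathway, -1.55 for blood endothelium, -0.80 for hypoxia and glycolysis and -0.72 for insulin-like growth factors. Among genes it was 5.16 for Tnni1, 4.34 for Tnnc1, 2.91 for Tnnt1, 5.12 for Myh3, 1.33 for Cyp2b19, 1.52 for Nudt12, -2.34 for AB124611 and -2.49 for Maff. Apart from Myh3, which was fixed by name, these genes were named for expanded steps that all had the same sign. Their direction in expanded skin was therefore fixed by the choice. In non-expanded skin Tnni1 lay near or below background. In all, 50 lists and 38 genes were checked.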

How the results depend on the processing

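With 1 array a day, each value rests on single arrays, and in limma no setting run for the slope, the curvature or their differences between the arms gave a gene an adjusted p under 0.05. Unadjusted slope calls (339) were 636 from the expanded arrays alone, 178 on log2(day + 1), and 157 to 982 with 1 expanded array left out. Curvature calls (480) were 1111 from the expanded arrays alone and 125 to 365 with 1 array left out. The 982 slope calls, without the day-0 array, and the 1111 curvature calls lay above the 682.7 of chance. Slope differences (166) were 365 without the filter, 94 with the 50th percentile filter, 275 on log2(day + 1) and 109 to 374 with 1 array left out. Curvature differences (362) were 572 without the filter and 136 to 288 with 1 array left out. Leaving arrays out of the curvature fits was chosen after seeing the data. In those fits the expanded curve passes exactly through the arrays that remain. Their values rest on a curve extended to the missing day and not on a mean of measured days. With the replicate block, slope differences were 146 and curvature differences 303. The cause of these shifts was not tested.

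With a range of at least 1.5 log2 units, courses up at each step, down at each step, highest at day 7, highest at day 14, lowest at day 7, lowest at day 14, up-down-up and down-up-down held 35, 85, 450, 107, 453, 132, 204 and 236 genes. With each step at least 0.25 log2 units, the same courses other than lowest at day 7 held 28, 48, 573, 184, 146, 303 and 454, and up-down-up held 340 with the 50th percentile filter. At 1.5 log2 units, steps up and down were 344 and 252 (day 0 to 7), 194 and 300 (7 to 14), 296 and 308 (14 to 21), and 219 and 273 (0 to 21).

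The curvature of Myl2 ran from -7.51 to 0.45 with 1 array left out, positive without day 21, and that of Lcn2 from -0.35 to 7.80, negative without day 0.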

Other observations

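Dendritic cell and T cell genes parted between days 7 and 14, as the interferon genes did. Of 15 tested genes of MHC class II and dendritic cells, 12 were highest at day 7, against 3262 of all 13653 genes. From day 7 to 14, 7 of the 15 read at least 2-fold lower, against 4.55% of all genes. The list means were 9.07, 9.49, 8.58 and 8.65. The T and NK cell list, with 10 tested genes, read 7.30, 7.24, 6.64 and 6.76. Of its 17 genes on the array, 7 to 11 lay below background on each day. Genes of myelin and of Schwann cells, which wrap nerve fibres, ran the other way, with means of 7.98, 7.45, 8.08 and 8.47. Positive slopes were found in 9 of 10, against 6930 of all 13653 genes.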
